A study of Mus musculus with 2 samples.

Results

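Autophagy is the route by which a cell wraps part of its own cytoplasm in a double membrane and delivers it to the lysosome. The 10 genes described here encode core parts of that machinery: Ulk1, Becn1, Atg5, Atg7, Map1lc3a, Map1lc3b, Gabarap, Gabarapl1, Gabarapl2 and Sqstm1. They were taken by symbol from the 21018 genes present in both deposited count tables, and all 10 were found in each table. Their levels were compared across 4 classes of cells of the newborn mouse ovary, each picked by marker genes that are not autophagy genes.

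The cells came from ovaries of C57BL mouse pups on postnatal day 3, when oocytes are being enclosed in primordial follicles, profiled with the 10x Genomics 3′ single-cell assay in 2 libraries. In the group labelled DEHP_MLT the mother received the plasticizer DEHP by gavage and then melatonin (MLT) each day from E16.5, late in gestation, to the day of sampling. In the group labelled MLT she received melatonin with DMSO given in place of DEHP. Both groups therefore carry melatonin, no group without melatonin was analysed here, and the doses and the number of pups or ovaries behind each library are not given in the sources used here. The sample titles and the names of the count tables disagree: the sample with the title MLT comes with a table named for DEHP_MLT, and the other way round. The titles were followed, and each direction between the libraries would turn round if the table names were right. With 1 library per group there is no replicate check and no test, and treatment, library and litter cannot be told apart.

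Depth was 80657690 UMIs (unique molecular identifiers, each counting 1 captured transcript) over 5277 barcodes in the library labelled MLT, against 117355739 over 4819 in the other. They shared 4 barcode sequences. Germ cells were gated on Dazl, Sycp3 and Figla, granulosa cells (the supporting cells of the follicle) on Fst, Hsd3b1, Inha and Aard, stroma on Col1a1, Col1a2, Col3a1 and Dcn, and perivascular cells on Rgs5 and Myh11. This gave 260 and 744 germ cells, 704 and 350 granulosa cells, 2691 and 2167 stroma cells and 133 and 98 perivascular cells in the libraries labelled MLT and DEHP_MLT. Another 1411 and 1460 cells stayed ungated. Markers that the gate did not use bore out each class: the summed level of Ddx4, Sycp1, Sohlh1 and Nobox was 12.5 and 12.1 UMIs per 10000 in germ cells against 0.690 and 0.659 in granulosa cells, and that of Foxl2, Amhr2, Kitl and Wnt6 was 17.2 and 15.3 in granulosa cells against 1.12 and 1.33 in germ cells. Pdgfra, Lum and Tcf21 summed to 6.44 and 6.84 in stroma and to at most 0.903 elsewhere, and Cspg4, Notch3, Acta2 and Mcam to 44.8 and 26.7 in perivascular cells and to at most 5.05 elsewhere. Foxl2, Amhr2, Kitl and Wnt6 also summed to 9.34 and 6.89 in the ungated cells, so the granulosa class need not hold every granulosa cell. What follows on granulosa cells refers to the gated class. The libraries differ in more than their label. Haemoglobin RNA stood at 3.43 to 15.6 per 10000 in the 4 classes labelled MLT and at 83.4 to 175 in those labelled DEHP_MLT, and the median germ cell had 8565 and 56508 UMIs.

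The genes act in sequence. ULK1 is the kinase that starts the process, and Beclin 1 (Becn1) is a subunit of the lipid kinase complex that marks the growing membrane. ATG7 is the activating enzyme and ATG5 part of the ligase through which the ATG8 proteins, of the LC3 branch (Map1lc3a, Map1lc3b) and the GABARAP branch (Gabarap, Gabarapl1, Gabarapl2), are joined to membrane lipid. p62 (Sqstm1) binds ubiquitinated cargo and ATG8 proteins and is itself degraded by autophagy. In the mouse, loss of Atg7 is known to reduce the number of germ cells in the newborn ovary. RNA levels say nothing of autophagic flux, which is set largely by protein modification.

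Between germ and granulosa cells, some of the 10 genes were higher on each side, the same way in both libraries. Germ cells had more Becn1 and Atg5 RNA, while granulosa cells had more Ulk1, Gabarapl1 and Sqstm1 RNA. Levels are UMIs of the gene per 10000 UMIs of all cells of a class in a library, with exact Poisson 95% intervals that cover counting error only. Where values come in pairs, the library labelled MLT is given first. A gene is called past the fold where the levels were at least 1.5-fold apart, their intervals did not overlap and the higher was at least 0.2 per 10000. By this rule 5 of the 10 genes stood apart the same way in both libraries between germ and granulosa cells. Of all 7771 genes tested in both libraries 64.3% did so, so the number is not particular to these genes, and what follows describes their direction and size. Fewer transcripts of a gene and fewer cells with it cannot be told apart in pooled counts, and shares of cells are given further on.

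**Figure D1:**
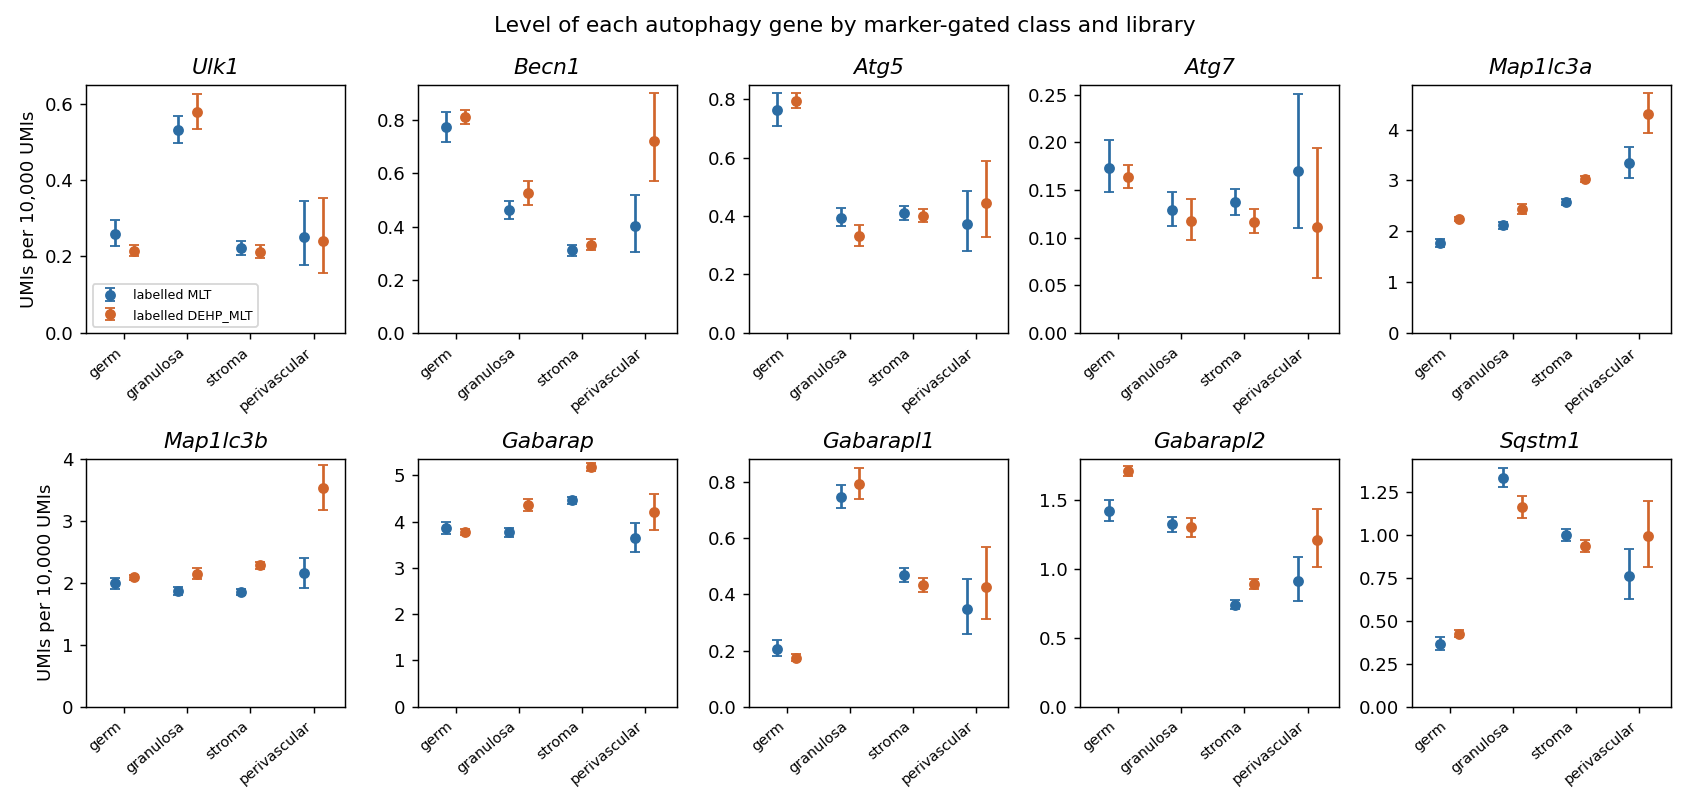
Level of each of the 10 genes (vertical axis, UMIs per 10000 UMIs, from 0) in the 4 marker-gated classes (horizontal axis), with the library labelled MLT in blue and the library labelled DEHP_MLT in orange. Points are pooled levels and bars exact Poisson 95% intervals; Becn1 and Atg5 are highest in germ cells, Ulk1, Gabarapl1 and Sqstm1 in granulosa cells, and Map1lc3a in perivascular cells, in both libraries.

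Among the initiation genes, Ulk1 was a granulosa transcript. Its level was 0.531 (0.496 to 0.567) and 0.578 (0.533 to 0.625) per 10000 in granulosa cells of the libraries labelled MLT and DEHP_MLT. Germ cells had 0.260 and 0.215, stroma 0.222 and 0.212, and perivascular cells 0.251 and 0.241. The last 3 classes overlapped in their intervals and granulosa cells stood above each of them. The interval of the log2 difference of germ over granulosa cells was -1.24 to -0.82 and -1.57 to -1.28, and granulosa cells stood 2.34-fold and 2.65-fold above stroma and 2.07-fold and 2.34-fold above perivascular cells.

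Becn1 ran the other way. Germ cells had 0.774 (0.719 to 0.832) and 0.812 (0.786 to 0.839) per 10000, granulosa cells 0.462 and 0.525, and stroma 0.311 and 0.332, the lowest of the classes in both libraries. Germ cells stood 1.66-fold and 1.54-fold above granulosa cells and 2.44-fold and 2.40-fold above stroma. The step over granulosa cells lies near the fold used: at an equal weight per cell the log2 difference was 0.67 and 0.58, and with 0.1 added to each level it was 0.64 and 0.55, so that the call was lost. Perivascular cells had 0.401 in the library labelled MLT, with an interval apart from germ cells, and 0.723 in the library labelled DEHP_MLT, where it overlapped germ cells.

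Of the conjugation genes, Atg5 was the clearer germ cell transcript. Its level there was 0.763 (0.709 to 0.821) and 0.794 (0.768 to 0.820) per 10000, against 0.394 and 0.332 in granulosa cells, 0.409 and 0.401 in stroma and 0.374 and 0.445 in perivascular cells. Germ cells lay above every other class in both libraries, by 1.91-fold and 2.35-fold over granulosa cells, 1.84-fold and 1.96-fold over stroma and 2.02-fold and 1.77-fold over perivascular cells. Atg7 was too low to call: it stayed under 0.2 per 10000 in all 8 class and library pools, from 0.111 to 0.173, so 9 of the 10 genes were tested. Its highest level was in germ cells in both libraries, 0.173 (0.148 to 0.202) and 0.164 (0.153 to 0.176). In the library labelled MLT that interval overlapped those of every other class, though that of granulosa cells (0.113 to 0.148) only at its edge. In the library labelled DEHP_MLT it overlapped that of perivascular cells (0.0575 to 0.194).

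The cargo receptor Sqstm1 had its lowest level in germ cells. It stood at 0.365 (0.327 to 0.405) and 0.424 (0.405 to 0.443) per 10000 there, against 1.33 and 1.16 in granulosa cells, 0.997 and 0.934 in stroma and 0.761 and 0.991 in perivascular cells. Granulosa cells were thus 3.58-fold and 2.70-fold above germ cells, stroma 2.69-fold and 2.18-fold, and perivascular cells 2.06-fold and 2.31-fold. Among the 3 somatic classes the order held with intervals apart only in the library labelled MLT, where granulosa cells led, then stroma, then perivascular cells. In the library labelled DEHP_MLT perivascular cells overlapped both of the others.

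Within the ATG8 family the 5 genes took different courses. Gabarapl1 had the widest range of all 10 genes, 2.13 on the log2 scale over the 8 pools. Its level was 0.749 (0.707 to 0.792) and 0.794 (0.741 to 0.850) per 10000 in granulosa cells, 0.469 and 0.433 in stroma, 0.346 and 0.426 in perivascular cells, and 0.207 (0.179 to 0.238) and 0.174 (0.162 to 0.186) in germ cells. Stroma and perivascular cells overlapped, and the other steps in that order had intervals apart in both libraries. The fold of granulosa over germ cells was 3.49 and 4.37. As a log2 difference of germ over granulosa cells this was -1.80 and -2.13. In the library labelled MLT it fell to -0.90 at an equal weight per cell. In the other it reached -2.72 in germ cells low in markers of other classes, a limit described with the shares of markers below.

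Gabarapl2 was highest in germ cells, followed by granulosa cells. Germ cells had 1.42 and 1.71 per 10000 and granulosa cells 1.33 and 1.30, against 0.741 and 0.892 in stroma and 0.917 and 1.21 in perivascular cells. Germ cells and granulosa cells overlapped in the library labelled MLT and not in the other. Granulosa and perivascular cells overlapped in the library labelled DEHP_MLT and not in the other. Germ cells were 1.91-fold above stroma in both libraries.

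Map1lc3a, which encodes LC3A, was higher at each step from germ cells through granulosa cells and stroma to perivascular cells, and each step had intervals apart in both libraries. The levels per 10000 in that order were 1.76, 2.12, 2.57 and 3.34 in the library labelled MLT. In the library labelled DEHP_MLT they were 2.24, 2.44, 3.03 and 4.32. Perivascular cells were 1.89-fold and 1.92-fold above germ cells. Map1lc3b, which encodes LC3B, the form most used to follow autophagosomes, was nearly even in the library labelled MLT, from 1.85 in stroma to 2.15 in perivascular cells. In the library labelled DEHP_MLT perivascular cells stood apart at 3.53 against 2.09 to 2.28 elsewhere. Gabarap was the most even gene, with a range of 0.51 on the log2 scale. It was highest in stroma, at 4.47 (4.39 to 4.54) and 5.18 (5.10 to 5.26), and lay between 3.64 and 4.35 in the other pools.

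The highest class was the same in both libraries for 10 of 10 genes. This includes genes whose highest class overlapped another, such as Map1lc3b in the library labelled MLT and Atg7 in both libraries. How often all genes keep their highest class was not measured, so the number cannot be called particular to these genes. Between granulosa cells and stroma, 2 of the 10 genes stood apart the same way in both libraries, Ulk1 and Gabarapl1, where 31.5% of all tested genes did. Between granulosa and perivascular cells there were 3 (Ulk1 and Gabarapl1 higher and Map1lc3a lower in granulosa cells, against 27.7% of all genes). Germ cells against stroma gave 5 (65.9% of all genes) and germ against perivascular cells 4 (61.5%). Between stroma and perivascular cells no gene stood apart in the library labelled MLT (21.1% of all genes) and 2 did in the other, Becn1 and Map1lc3b (28% of all genes). The germ cell contrasts thus drew the largest counts here, as they did over all genes. Gabarapl1 calls outside the germ to granulosa contrast were the least firm. Against perivascular cells the call ended in the library labelled MLT with a gate minimum of 0.1, a lead of 4 or 10, equal weight per cell, 0.1 added, or cells led by Rgs5 alone, where the log2 difference of germ cells lay between -0.66 and 0.43 in place of -0.71. Between germ cells and stroma it ended at an equal weight per cell (-0.29 and -1.12), and between granulosa cells and stroma with a gate minimum of 0.4 (0.44 and 0.61) and with 0.1 added (0.58 and 0.75). The Sqstm1 call between germ and perivascular cells ended at an equal weight per cell (-0.50 and -1.12). With the 49 and 11 cells led by Myh11 alone as the perivascular class, the calls of Atg5 and Sqstm1 against germ cells and of Map1lc3a and Gabarapl1 against granulosa cells ended, with the direction as before. The log2 differences of germ over perivascular cells were then 0.95 and 1.11 for Atg5 and -1.32 and -0.76 for Sqstm1, and those of granulosa over perivascular cells -0.51 and -0.90 for Map1lc3a and 0.77 and 0.45 for Gabarapl1. Gabarapl2 gained a call there between germ and perivascular cells, at 0.98 and 1.09.

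The levels of the markers that the gate did not use were compared between classes. Such shares do not tell RNA of other cells from expression by the class itself. Of their level in granulosa cells, the granulosa markers kept 6.48% and 8.69% in germ cells, and of their level in germ cells the germ markers kept 5.52% and 5.43% in granulosa cells. The shares were higher elsewhere: granulosa markers kept 19.0% and 15.8% in stroma and 14.8% and 8.18% in perivascular cells, stroma markers 14.0% and 8.81% in perivascular cells, and perivascular markers 9.73% and 18.9% in stroma. Gabarapl1 in germ cells stood at 27.7% and 21.9% of its granulosa level, and Sqstm1 at 27.4% and 36.5%, above the shares of the granulosa markers there. Barcodes that hold 2 cells were not called. When germ cells were limited to those with under 5 per 10000 of granulosa and epithelium markers (194 and 578 cells), a limit chosen after seeing the data, Gabarapl1 was at 0.188 and 0.112 per 10000 and Sqstm1 at 0.361 and 0.354. Atg5 was then at 0.767 and 0.839 and Becn1 at 0.772 and 0.834. The order against granulosa cells was the same, but Gabarapl1 in the library labelled DEHP_MLT moved by more than 1.5 times with this limit. How much RNA of other cells lies in its germ cell level was not tested. Weighting the 260 germ cells labelled MLT equally gave a Gabarapl1 level of 0.392 in place of 0.207, since cells with few UMIs then count as much as deep ones.

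The promoters of 3 genes at the ends of the germ to granulosa contrast are shown because Atg5 was the gene furthest towards germ cells and Gabarapl1 and Sqstm1 the genes furthest towards granulosa cells. Each is the stretch of 250 bases before the gene start from RefSeq (GRCm38.p6), 5′ to 3′ on the strand of the gene, at chr10:44268089-44268338 (+) for Atg5, chr6:129532942-129533191 (+) for Gabarapl1 and chr11:50210821-50211070 (-) for Sqstm1. Capitals mark CACGTG, the E-box core that also lies within the motif of the lysosomal and autophagy regulators TFEB and TFE3; it is its own reverse complement, so both strands were read at once.
Atg5: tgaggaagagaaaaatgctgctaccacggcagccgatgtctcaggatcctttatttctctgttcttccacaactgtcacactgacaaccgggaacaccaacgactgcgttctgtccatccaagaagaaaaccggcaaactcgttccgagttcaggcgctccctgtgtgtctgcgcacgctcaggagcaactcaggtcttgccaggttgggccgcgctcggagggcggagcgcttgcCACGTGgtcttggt
Gabarapl1: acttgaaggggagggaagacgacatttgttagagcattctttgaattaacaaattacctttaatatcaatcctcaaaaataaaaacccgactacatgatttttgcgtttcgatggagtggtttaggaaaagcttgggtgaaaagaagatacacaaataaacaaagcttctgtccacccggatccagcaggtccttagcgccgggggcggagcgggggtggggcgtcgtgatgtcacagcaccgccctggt
Sqstm1: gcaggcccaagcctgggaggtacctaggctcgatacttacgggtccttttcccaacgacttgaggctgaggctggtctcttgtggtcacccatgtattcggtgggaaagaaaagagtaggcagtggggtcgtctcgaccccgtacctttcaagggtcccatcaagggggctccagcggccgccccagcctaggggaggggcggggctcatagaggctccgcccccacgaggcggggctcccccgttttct
The Atg5 stretch holds the motif 14 bases before the gene start, and the Gabarapl1 and Sqstm1 stretches do not hold these letters. Of the 8 genes with an entry in the table (Becn1 and Map1lc3a have none), 2 hold it, Atg5 and Atg7, and the Atg7 match starts 132 bases before the gene start. In stretches of the same length 6.02% of 32851 promoters hold it. Of the 57 genes of the wider autophagy list with an entry, these 8 among them, 11 (19.3%) hold it in any of their promoters. The first share counts promoters and the second counts genes, so they are not like measures. A match is a description of letters and not a measured binding site.

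The germ to granulosa contrast was also read across a wider list of 70 autophagy genes, the 10 and 60 others, grouped by step. Between germ and granulosa cells, 17 of the 60 others were higher in germ cells in both libraries and 9 lower, out of 42 tested. Their median log2 difference, averaged over the libraries, was 0.34, against 0.07 over all genes tested and -0.08 for the 9 tested of the 10. In the lipid kinase complex of Beclin 1, 5 of 8 genes were higher in germ cells and 0 lower (Becn1, Pik3r4, Pik3c3, Uvrag and Nrbf2), with a median of 0.86 over the 6 tested. In ATG8 conjugation, 4 of 10 were higher and 0 lower (Atg5, Atg12, Atg4b and Atg3), with 6 tested. In the ULK complex, 0 of 5 were higher and 2 lower, Ulk1 and its paralogue Ulk2. Of all tested genes 33.1% were higher in germ cells and 31.2% lower.

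Cargo receptors and lysosomal genes were mixed. Of 14 receptors, 4 were higher in germ cells (the mitophagy receptors Bnip3 and Bnip3l, and the endoplasmic reticulum receptors Retreg1 and Tex264) and 2 lower (Sqstm1 and Nbr1, both binders of ubiquitinated cargo). Of 13 lysosomal genes, 4 were higher, among them Mcoln1, Lamp1 and Atp6v0d1, and 5 lower (Lamp2, Hexa, Ctsb, Ctsl and Tfe3). Among the 60 others, some of the largest log2 differences towards germ cells were those of Bnip3 (2.36 and 2.35) and Mcoln1, the lysosomal calcium channel (2.14 and 2.34). Towards granulosa cells the largest among the 60 were those of Vamp8, a SNARE of autophagosome fusion (-2.70 and -2.40), Wipi1, a lipid binder of the early membrane (-1.56 and -1.30), and Ulk2 (-1.37 and -1.45). Against stroma, 5 of 8 genes of the lipid kinase complex were higher in germ cells and 0 lower. Of all genes tested in both libraries, 36.6% were higher in germ cells than in stroma and 29.3% lower. The same germ cells enter both contrasts, so the second is no separate check of the first.

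Because the ATG8 proteins share 1 conjugation route, the make-up of their pooled RNA was compared between classes. A UMI of this assay counts a transcript once whatever its length. The summed level of the 5 genes spanned 9.25 to 10.4 per 10000 over the classes labelled MLT and 9.99 to 13.7 over those labelled DEHP_MLT. Gabarapl1 made up 2.24% (exact Clopper-Pearson 95% interval 1.94% to 2.57%) and 1.74% (1.62% to 1.87%) of the family in germ cells. In granulosa cells it made up 7.61% (7.21% to 8.03%) and 7.19% (6.73% to 7.68%). Stroma lay between, at 4.64% and 3.66%. Gabarapl2 made up 15.4% and 17.1% of the family in germ cells and 7.34% and 7.55% in stroma. The share of Map1lc3a was 32.1% and 31.6% in perivascular cells, against 19.1% to 25.6% elsewhere.

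**Figure D2:**
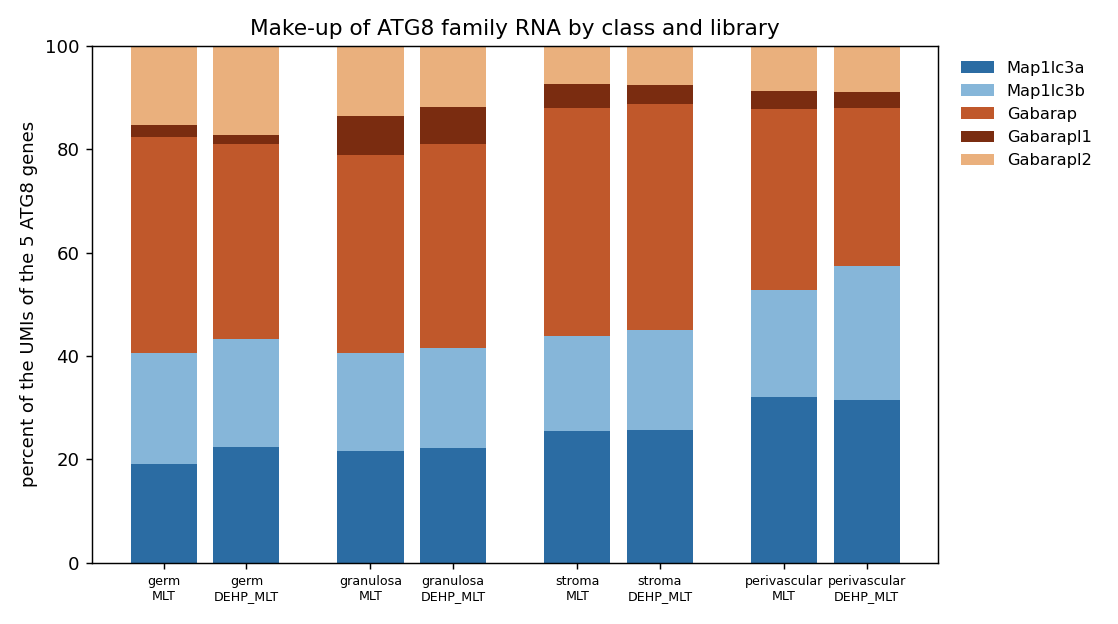
Stacked bars of the percent of the UMIs of the 5 ATG8 genes that each gene makes up (vertical axis, 0 to 100), 1 bar per class and library. Gabarapl1, in dark brown, makes up 7.61% and 7.19% in granulosa cells and 2.24% and 1.74% in germ cells, and Map1lc3a, in dark blue, makes up its largest share in perivascular cells.

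Shares of cells with at least 1 UMI showed how far sequencing depth governs detection of these genes. Gabarap was seen in 83.5% and 98.8% of germ cells as sequenced, and in 49.2% and 51.3% once each cell was thinned to 2000 UMIs. At that depth Atg5 was seen in 17.7% (13.3% to 22.9%) and 16.8% (14.2% to 19.7%) of germ cells, and in 9.09% (7.07% to 11.5%) and 5.71% (3.53% to 8.69%) of granulosa cells. Unthinned, the Atg5 shares were 61.9% and 90.5% of germ cells and 50.7% and 56.3% of granulosa cells. Sqstm1 was seen in 10.4% (6.96% to 14.7%) and 11.8% (9.60% to 14.4%) of thinned germ cells and in 20.3% (17.4% to 23.5%) and 20.9% (16.7% to 25.5%) of thinned granulosa cells. Unthinned, its shares were 47.7% and 79.0% of germ cells and 75.3% and 86.9% of granulosa cells. Thinned Gabarapl1 shares were 6.54% and 3.90% of germ cells and 14.9% and 16.3% of granulosa cells, and unthinned ones 36.2% and 52.2%, and 62.4% and 75.4%. Thinned Becn1 shares were 13.5% (9.56% to 18.2%) and 16.3% (13.7% to 19.1%) of germ cells and 8.66% (6.69% to 10.99%) and 9.43% (6.58% to 12.99%) of granulosa cells, with unthinned shares of 56.9% and 89.7%, and 50.7% and 70.9%. For Ulk1 the thinned intervals were 2.69% to 8.40% and 3.19% to 6.33% in germ cells and 7.45% to 11.9% and 4.68% to 10.4% in granulosa cells, around unthinned shares of 39.6% and 64.2%, and 52.8% and 64.3%. The thinned shares of these 5 genes thus had the same direction as the pooled levels. Their intervals lay apart in both libraries for Atg5, Sqstm1 and Gabarapl1, overlapped in both for Ulk1, and for Becn1 lay apart only in the library labelled DEHP_MLT. They are not shares of expressing cells, and since none of the classes should lack these genes, no class gives their background from free RNA.

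Within germ cells the genes were read against oocyte growth, using the summed level of 9 zona pellucida and oocyte-secreted or maternal genes (Zp1, Zp2, Zp3, Gdf9, Bmp15, Npm2, Nlrp5, Ooep and Oosp1). Cells above and not above the median were compared, 130 and 130 in the library labelled MLT and 372 and 372 in the library labelled DEHP_MLT; both groups are ranges of a score and not cell types. Gabarapl1 was the 1 gene of the 10 past 1.5-fold with intervals apart, and it was so in both libraries. It went from 0.158 to 0.263 per 10000 towards the high group in the library labelled MLT (log2 difference 0.70) and from 0.136 to 0.211 in the library labelled DEHP_MLT (0.60). Of all tested genes 4.76% and 4.66% were past the fold in this split. Gabarap had log2 differences of 0.16 and 0.31 and Map1lc3b of 0.26 and 0.09, all with intervals apart. Sqstm1 had 0.05 and 0.35, apart only in the library labelled DEHP_MLT. Becn1 had -0.29 and -0.12, with overlapping intervals. The summed level of the granulosa check markers was 1.14 in the high group and 1.09 in the low group in the library labelled MLT, and 1.51 and 1.14 in the library labelled DEHP_MLT, so in the latter it moved with Gabarapl1, and its part in that difference was not tested. Median UMIs were 7537 and 10876.5 in the high and low groups labelled MLT and 53025 and 62917 in those labelled DEHP_MLT.

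**Figure D3:**
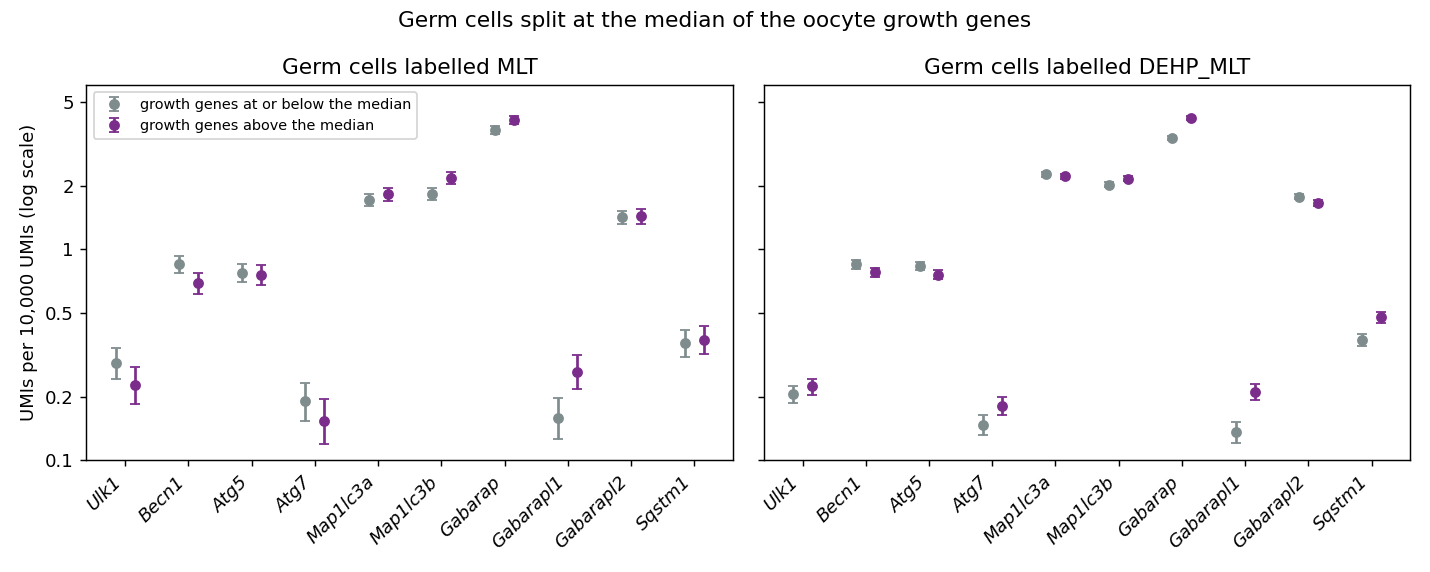
Level of each gene (vertical axis, log scale, UMIs per 10000 UMIs) in germ cells above (purple) and not above (grey) the median of the oocyte growth genes, with the library labelled MLT on the left and the library labelled DEHP_MLT on the right; bars are exact Poisson 95% intervals. Gabarapl1 is higher among the purple points in both libraries, at 0.263 against 0.158 and at 0.211 against 0.136, and the other 9 genes lie within 1.5-fold.

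Among stroma cells, those with a UMI of the proliferation genes Mki67 or Top2a (1103 and 813 cells) were set against those without (1588 and 1354). None of the 10 genes was past the fold in either library, where 6.32% and 6.38% of all tested genes were. Smaller differences with intervals apart in both libraries were lower levels in the cells with such a UMI of Map1lc3b (log2 difference -0.27 and -0.19), Gabarap (-0.14 and -0.13) and Map1lc3a (-0.13 and -0.12). Those cells were deeper, with a median of 11810 and 14509 UMIs against 10014 and 10606, and the part of depth in these differences was not tested.

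Between the libraries, the 10 genes differed little in germ cells, granulosa cells and stroma. None was past the fold in these 3 classes, where 4.86%, 9.32% and 9.63% of all tested genes were. In germ cells the log2 difference (labelled DEHP_MLT over labelled MLT) ran from -0.26 for Ulk1 (interval -0.48 to -0.07) to 0.34 for Map1lc3a (0.27 to 0.42). Gabarapl2 had 0.27, Sqstm1 0.21 and Gabarapl1 -0.24, while Becn1, Atg5, Map1lc3b and Gabarap lay between -0.03 and 0.07. At an equal weight per cell Gabarapl1 in germ cells had -0.96, with no interval, which is past the fold, so that this weighting added a call by fold alone. In granulosa cells the values ran from -0.24 for Atg5 (-0.44 to -0.06) to 0.21 for Gabarap (0.15 to 0.26), and Sqstm1 had -0.20 (-0.30 to -0.10). In stroma they ran from -0.22 for Atg7 to 0.30 for Map1lc3b (0.25 to 0.35), with Gabarapl2 at 0.26, Map1lc3a at 0.24 and Gabarap at 0.21. The LC3 genes had positive values in all 4 classes under every alternative run, though that of Map1lc3b in germ cells, 0.07, lay within counting error.

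These small values stand beside a shift of the whole scale. The median log2 difference over all tested genes was -0.08 in germ cells, -0.15 in granulosa cells, -0.13 in stroma and -0.10 in perivascular cells, and that of the 9 tested of the 10 genes was 0.07, 0.12, 0.09 and 0.37. Above the median of all genes lay 7, 7, 9 and 9 of these 9 genes in the same classes. Haemoglobin RNA took a larger part of the UMIs labelled DEHP_MLT, and leaving it out of the totals changed no call of the 10 genes between the libraries. Cells with at least 5 per 10000 of MHC class II RNA were found only among the gated cells labelled MLT (33 germ, 175 granulosa, 565 stroma and 11 perivascular cells), and without them no call of the 10 genes between the libraries changed.

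In perivascular cells 2 genes were past the fold, both higher in the library labelled DEHP_MLT, where 4.38% of all tested genes were higher past the fold, 9.43% lower and 13.8% either. Becn1 had 59 UMIs at 0.401 per 10000 (0.305 to 0.517) in the library labelled MLT and 78 UMIs at 0.723 (0.571 to 0.902) in the other, a log2 difference of 0.84 (0.34 to 1.36). Map1lc3b had 317 UMIs at 2.15 (1.92 to 2.40) and 381 UMIs at 3.53 (3.19 to 3.90), a difference of 0.71 (0.49 to 0.93). The make-up of the class moved with these values: cells in which Rgs5, a pericyte marker, led over Myh11, a smooth muscle marker, were 84 of 133 and 87 of 98. The summed level of Cspg4, Notch3, Acta2 and Mcam was 44.8 and 26.7 per 10000, and that of the stroma gate markers 26.7 and 15.8. Among cells with Rgs5 in the lead only, Becn1 was at 0.72, still past 1.5-fold. It lost its call because its intervals overlapped, at 0.324 to 0.634 and 0.599 to 0.963 per 10000. Map1lc3b kept its call there and Sqstm1 gained one at 0.72. Among the remaining 49 and 11 cells Becn1 and Map1lc3b were both at 0.39, with no call, and Map1lc3a gained one at 0.59. A stricter gate also ended the Becn1 call. With a lead of 4 the difference, 0.73, was still past 1.5-fold but the intervals overlapped, and with a lead of 10 it was 0.37, under the fold. The part of class make-up in these differences was not tested beyond these values.

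**Figure D4:**
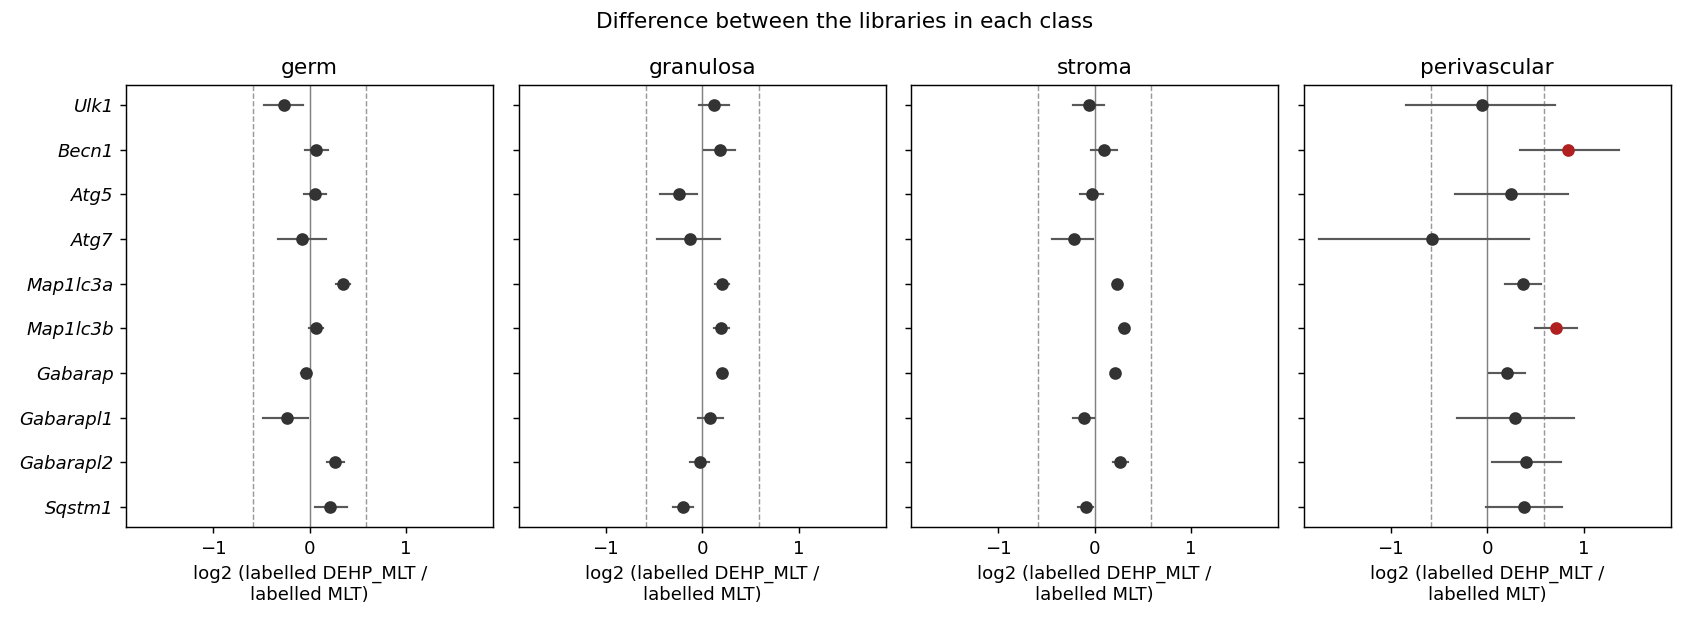
Log2 of the level in the library labelled DEHP_MLT over that labelled MLT (horizontal axis) for each gene in 4 panels, 1 per class. Bars are exact conditional 95% intervals for counting error, dashed lines mark 1.5-fold, and red marks the 2 points past the fold, Becn1 (0.84) and Map1lc3b (0.71) in perivascular cells; in the other 3 panels all points lie between -0.26 and 0.34.

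Of the 60 other genes of the wider list, 0 were past the fold between the libraries in germ cells. In granulosa cells 5 were lower in the library labelled DEHP_MLT and 0 higher, where 8.37% of all genes were lower. The 3 lowest were Ctsl, a lysosomal protease (-1.06), Uvrag, a partner of Beclin 1 (-0.89), and Atg101, a subunit of the ULK complex (-0.82). In stroma 3 were lower, where 8.36% of all genes were: Uvrag (-0.76), the ULK complex scaffold Rb1cc1 (-0.70) and Atg101 (-0.61). In perivascular cells 2 were higher, among them Atg4d, a protease that trims ATG8 proteins (1.72), and 3 lower, Nrbf2 of the lipid kinase complex (-1.17), the fusion SNARE Stx17 (-1.04) and Rb1cc1 (-0.93). The ULK complex had 2 of 5 genes lower in granulosa cells and 2 in stroma, while Ulk1 itself was at 0.12 and -0.06 there.

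The 3 genes with the widest range over the 8 pools were also matched with the genes whose log2 levels followed them most closely, among 9503 genes with at least 0.2 per 10000 in any pool. The 8 pools come from 2 libraries and share depth and free RNA within each, so these correlations are descriptions. Gabarapl1 was followed most closely by Tram2, Dcaf10 and Polr1a (r = 0.99 for each), Sqstm1 by Ctps2, Pck2 and Tmem86a (r = 0.99) and Ulk1 by Ptges, Greb1 and Ano4 (r = 0.99). With 8 points such values are common: 112, 190 and 118 genes reached r of at least 0.95 with these 3 genes. Among the 10 genes, Sqstm1 and Gabarapl1 had r = 0.95 and Sqstm1 and Atg5 had r = -0.91.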

How the data were processed

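Ovaries of mouse pups were measured by 10x 3′ single-cell RNA sequencing in 2 libraries, 1 per group. Per the submitters' processing notes, the tools were Cell Ranger, with no version, and Seurat 4.2.0, and the build was mm9; the strand setting, annotation and cell filters are not given in the sources used here. The authors deposited raw counts, whole UMI counts per gene and barcode with no normalization. Groups follow the sample titles.

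The filter on barcodes (500 genes or more, mitochondrial UMIs no higher than 20%) left 5199 of 5277 labelled MLT, with a lowest total of 2031 UMIs, and 4819 of 4819 labelled DEHP_MLT, with a lowest of 6923. The summed marker level of each class was divided by its 99th percentile over both libraries, and a cell joined the highest class where that was at least 0.2 and at least 2 times the next. Cells near the minimum (within 25% of it) numbered 62 and 42 for germ, 230 and 133 for granulosa, 218 and 186 for stroma and 13 and 12 for perivascular cells. No doublet caller was run; the lead set aside 85 and 30 cells whose highest class was germ and 108 and 42 whose highest was granulosa.

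UMIs were pooled per class and library and scaled per 10000. Log2 ratios were taken after adding 0.01 per 10000 to both levels, which understates differences of low genes; their intervals are exact and conditional, without that addition. Intervals are 95% and cover counting error only. No test was made. All 10 genes are named; of the wider list, up to 3 genes each way past the fold; and the 3 genes most alike for the 3 widest. Not every gene the rule names is reported here. The genes and lists were chosen with earlier results of these data known. Scripts ran in Python 3.11.15 (pandas 2.3.3, scipy 1.17.1, numpy 2.4.6), with figures in matplotlib 3.10.9. The rule was also run on simulated counts with set changes and counting error only. That run cannot show how the rule fares with other differences between libraries. Alternatives numbered 11, and 5 more were chosen after seeing the data.

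In GENCODE vM21, which is not on mm9, no gene of the 10 shares a stretch of 60 bases in its last 500 transcript bases with another gene. Exons of Becn1 overlap Cntd1 on the opposite strand, those of Map1lc3b Zcchc14, those of Gabarapl1 1700101I11Rik and those of Sqstm1 Mrnip, so without the strand setting reads of these pairs cannot be told apart.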

Additional observations from a re-analysis of the deposited data

How the results depend on the processing

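No paired analysis was possible because each group has 1 library and the labels give no replicate numbers; for the same reason no replicate could be left out. Over 16 alternatives, counts of genes past the fold stayed within 1.5 times in 121 of 141 cases. The exceptions follow. The number of gene and class combinations past the fold between the libraries, 2, became 1 with a gate lead of 4, with a lead of 10 and in perivascular cells with Myh11 at or above Rgs5. Of the counts of the 10 genes shared by both libraries, germ against perivascular cells went from 4 to 2 at an equal weight per cell, granulosa cells against stroma from 2 to 1 with 0.1 per 10000 added, granulosa against perivascular cells from 3 to 1 with Myh11 at or above Rgs5, and stroma against perivascular cells from 0 to 1 with a lead of 10. For the 60 other autophagy genes between the libraries, the germ cell count of 0 became 1 with a gate minimum of 0.4, with no minimum level and with a lead of 10, 2 with median scaling, 3 with the same UMI floor and without MHC class II-high cells, and 7 at an equal weight per cell. The stroma count of 3 became 1 with median scaling. The perivascular count of 5 became 3 with a gate minimum of 0.4 and with Myh11 at or above Rgs5, 2 with Rgs5 above Myh11, 0 with a lead of 10 and 9 at an equal weight per cell. One value reversed: Gabarapl1 in germ over perivascular cells labelled MLT went from -0.71 to 0.43 on the log2 scale at an equal weight per cell. The cause was not tested. Of the values of single genes, 2314 stayed within their counting interval or on their side of the fold and 395 moved, the 2 depths of thinning and equal weights among them. The perivascular pools, with 133 and 98 cells, limit what can be said of Becn1, Ulk1 and Atg7 there.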

Other observations

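Barcodes rich in haemoglobin RNA were read on their own, and whether they hold red cells, other cells with free RNA or both was not tested. Barcodes with at least 1000 haemoglobin UMIs per 10000 numbered 54 (labelled MLT) and 693 (labelled DEHP_MLT), and 8 and 101 of them were among the gated cells. Gabarapl2 stood at 3.60 (3.21 to 4.03) and 2.95 (2.83 to 3.07) per 10000 in these barcodes, above its level in each of the 4 gated classes (0.741 to 1.71). Map1lc3b stood at 3.29 (2.91 to 3.70) and 4.48 (4.34 to 4.63), and Atg5 at 0.120 (0.0576 to 0.221) and 0.126 (0.103 to 0.153), below its level in each gated class (0.332 to 0.794). Haemoglobin itself takes at least 1000 of each 10000 UMIs there, so levels per 10000 are lowered for every other gene. Gabarap was at 1.84 and 3.67 and Sqstm1 at 0.396 and 1.08, with intervals apart between the libraries. Intervals were also apart for Ulk1, Map1lc3a, Map1lc3b and Gabarapl2, and overlapped for Becn1, Atg5, Atg7 and Gabarapl1. The share of all genes with intervals apart between these sets of 54 and 693 barcodes was not measured. Whether the differences are particular to these genes was therefore not tested.

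The cells left ungated, a mixture of classes, had more Gabarapl1 than any gated class in the library labelled MLT, at 0.925 (0.886 to 0.964) per 10000, and 0.799 (0.768 to 0.832) in the library labelled DEHP_MLT, where granulosa cells had 0.794 (0.741 to 0.850). In the ungated cells labelled MLT 47.8% had a Gabarapl1 UMI, against 62.4% of granulosa cells, at a median of 11542 and 15257.5 UMIs.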
